A study of Mus musculus with 8 samples.

Results

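This account follows 9 mouse genes known from T cell and natural killer (NK) cell signalling and identity: Zap70, Lat, Lcp2, Sla, Sla2, Nfil3, Tox, Klrd1 and Klrb1c. They are 9 of 47937 gene IDs in the count tables, were picked by name, and each matched 1 ID. Because they were chosen with the exonic and intronic values of this same comparison in view, their own values are given as a description, with no test. The working name for the group was derepressed T and NK cell genes, and the data went against it for Zap70, which was lower after treatment, and did not bear it out for Tox, which had no exonic read in any library. Lcp2 was higher, with 25 exonic reads over all 8 libraries.

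The cells were pro-B cells transformed with the A-MuLV virus, in which the endogenous EBF1 had been replaced by an introduced, modified gene (genotype EBF1-dTAG_N). In all, 4 libraries came from cells given dTAG-13 at 0.5 µM for 6 h, a compound that directs a dTAG-tagged protein to degradation, and 4 from cells given DMSO, its solvent. The treatment labels give 6 h for DMSO, whereas the titles of the same samples give 0 h. All 8 libraries carried the tagged EBF1, so an effect of the compound itself and an effect of losing EBF1 cannot be told apart. A transformed line that relies on an introduced EBF1 is a model of the pro-B stage and not a primary cell, and the counts do not measure EBF1 protein.

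EBF1 is a transcription factor that B-lineage cells need to acquire and keep their identity. In T cells, an engaged antigen receptor is phosphorylated by LCK, recruits the kinase ZAP70, and ZAP70 phosphorylates the adaptors LAT and SLP-76, on which downstream signalling complexes assemble. B cells use the related kinase SYK and the adaptor BLNK in the corresponding places. NK cells and other innate lymphoid cells are recognised by receptors encoded together in the NK gene complex, and their development in mice needs transcription factors that include NFIL3 and TOX.

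The total exonic count per library was 33170855 to 38999496 with dTAG-13 and 28982316 to 38170273 with DMSO. Reads in introns, which come largely from unspliced RNA, made up 20.4% to 27.3% of gene reads with dTAG-13 and 22.2% to 26.1% with DMSO. Levels are CPM, counts scaled to the TMM-adjusted size of each library, and fold changes are the fitted edgeR values of dTAG-13 over DMSO. The samples are bulk cultures, so fewer cells expressing a gene and less RNA per cell cannot be told apart. Over all 12889 genes tested in exonic reads, the median log2 fold change was -0.003.

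In exonic reads, 7 of the 9 genes had every dTAG-13 library above every DMSO library, and Zap70 had every dTAG-13 library below. The filter on low counts was passed by 7 of the 9, 6 of them with higher and 1 with lower dTAG-13 values, and Lcp2 and Tox did not pass. Among all genes tested in exonic reads, 14.2% had all dTAG-13 libraries above all DMSO libraries and 13.5% had them all below. Klrb1c passed the filter only through its dTAG-13 libraries, and since the genes were chosen on this contrast nothing is read from their count. In intronic reads 6 were tested, and 5 of them had all dTAG-13 libraries above all DMSO libraries, as did 9.51% of all 11229 genes tested. Fitted exonic log2 fold changes ran from -0.80 for Zap70 to 2.76 for Sla2.

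**Figure D1:**
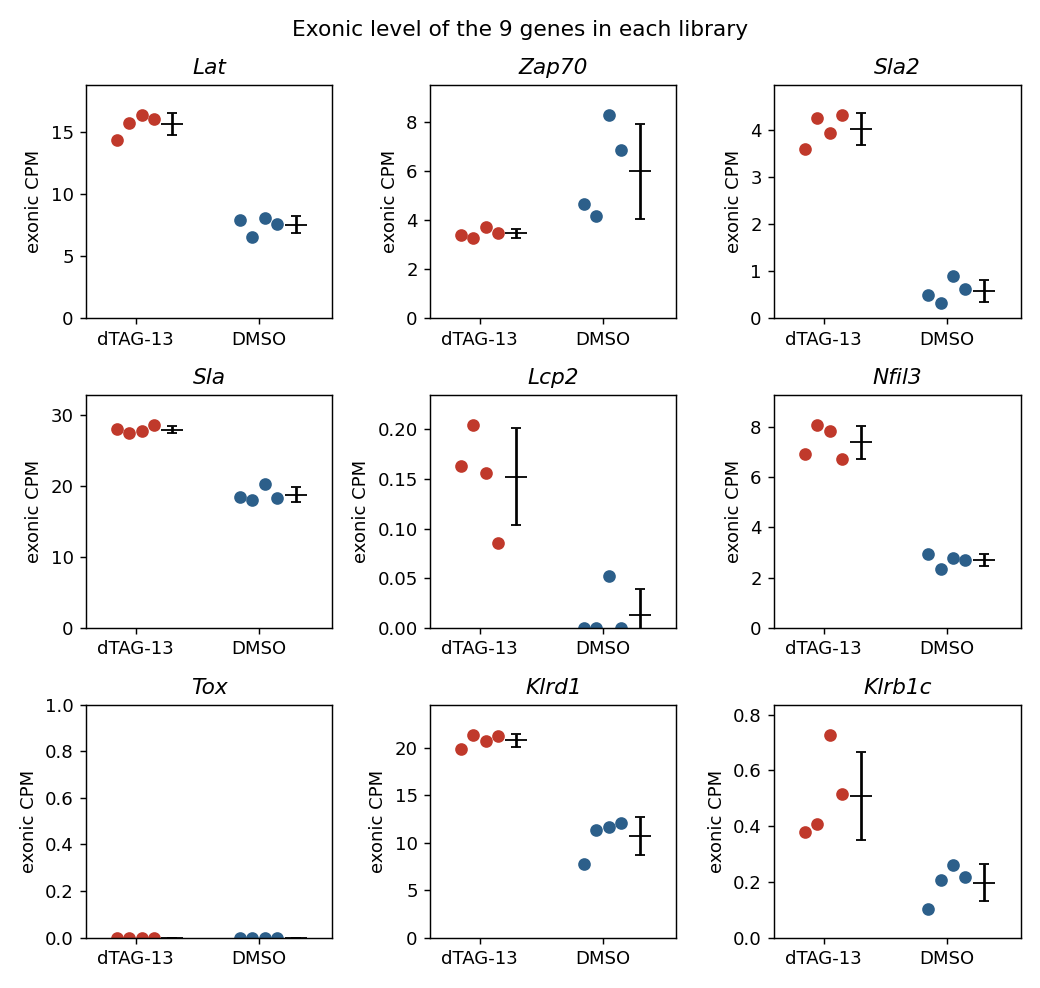
Exonic CPM of the 9 genes in each library, with the 4 dTAG-13 libraries left of the 4 DMSO libraries. Points are libraries and bars are the mean ± SD (n = 4 each). Sla2 lies at 3.59 to 4.32 CPM with dTAG-13 and at 0.311 to 0.887 CPM with DMSO, and Zap70 is the gene whose dTAG-13 libraries all lie below the DMSO libraries.

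Promoter sequence is shown for Sla2, which had the highest fold change, for Lat, the first adaptor described, and for Zap70, which was lower. Sequences are from RefSeq on GRCm38.p6, 5′ to 3′ on the gene's strand, 250 bases before to 10 after the annotated start, with the RUNX letters TGTGGT and the ETS letters AGGAAG, on either strand, in capitals. The windows are chr2:156887212-156887471 on the minus strand for Sla2, chr7:126369559-126369818 on the minus strand for Lat, and chr1:36761548-36761807 on the plus strand for the first of 3 Zap70 windows.
Sla2: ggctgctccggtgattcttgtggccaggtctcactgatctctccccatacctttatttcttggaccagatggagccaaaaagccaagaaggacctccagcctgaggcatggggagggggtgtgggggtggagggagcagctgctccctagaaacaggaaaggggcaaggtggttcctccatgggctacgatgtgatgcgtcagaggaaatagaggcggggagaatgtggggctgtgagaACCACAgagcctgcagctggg
Lat: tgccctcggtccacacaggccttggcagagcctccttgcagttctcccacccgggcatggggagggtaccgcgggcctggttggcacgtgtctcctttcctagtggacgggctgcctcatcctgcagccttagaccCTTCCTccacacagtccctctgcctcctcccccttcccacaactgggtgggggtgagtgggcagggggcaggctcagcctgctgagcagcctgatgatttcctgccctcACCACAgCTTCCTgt
Zap70: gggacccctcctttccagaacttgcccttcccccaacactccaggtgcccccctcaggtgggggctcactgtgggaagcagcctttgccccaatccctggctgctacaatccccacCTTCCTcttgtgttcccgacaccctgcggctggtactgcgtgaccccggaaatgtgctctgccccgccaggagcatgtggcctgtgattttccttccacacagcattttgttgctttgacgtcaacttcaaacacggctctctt
Motif letters were searched on both strands of windows of 300 bases, for the 6 of 9 genes with a window. The EBF core letters CCCNNGGG were found in the third Zap70 window and in 13.7% of all 32851 windows. The full EBF letters, which are the core with T before it and A after it, were in none of the windows of the 6 genes and in 0.904% of all windows. RUNX letters occurred in windows of Lat, Sla2, Klrb1c and Zap70, and in 16.8% of all windows. ETS letters occurred in 35.4% of all windows. A match of letters is a description of the sequence and not a measured site. Sla, Tox and Klrd1 had no window in the table used.

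Lat encodes a membrane adaptor that ZAP70 phosphorylates and that gathers phospholipase C and GRB2-family proteins (ENSMUSG00000030742.7, GRCm38 chr7:126363824-126369570, minus strand). It had 14.4, 15.7, 16.4 and 16.1 CPM in the dTAG-13 libraries, against 7.95, 6.53, 8.09 and 7.57 CPM in the DMSO libraries. The groups did not overlap, and the log2 fold change was 1.05 ± 0.09 (SE, n = 4 each). Lat intronic reads lay at 2.62 to 5.34 CPM with dTAG-13 and at 0.953 to 2.50 CPM with DMSO, also without overlap, with a log2 fold change of 1.21 ± 0.36.

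Zap70, the kinase upstream of LAT, went the other way (ENSMUSG00000026117.10, chr1:36761798-36782818, plus strand). It had 3.40, 3.27, 3.71 and 3.46 CPM with dTAG-13, against 4.67, 4.14, 8.27 and 6.84 CPM with DMSO. All dTAG-13 libraries lay below all DMSO libraries, and DMSO replicates 3 and 4 stood well above DMSO replicates 1 and 2. The log2 fold change of -0.80 ± 0.17 ranged from -0.94 to -0.60 when 1 library at a time was left out. In intronic reads the Zap70 groups overlapped, at 3.59 to 6.50 CPM with dTAG-13 and 3.86 to 8.46 CPM with DMSO, with a log2 fold change of -0.31 ± 0.26. The DMSO libraries were the more variable in exonic reads.

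Lcp2 encodes SLP-76, the cytosolic adaptor that joins LAT (ENSMUSG00000002699.13, chr11:34046920-34092295, plus strand). It had 6, 8, 6 and 3 exonic reads in the dTAG-13 libraries, against 0, 0, 2 and 0 in the DMSO libraries. The summed 23 and 2 reads gave a depth-adjusted ratio of 10.2, with an exact 95% interval of 2.53 to 89.7 that covers counting error only. Intronic reads of Lcp2 summed to 14 with dTAG-13 and 9 with DMSO, a ratio of 1.43 with an interval of 0.575 to 3.74. Because Lcp2 was chosen on this contrast, both intervals only describe counting error and are no test. They leave out the spread between libraries, and no intronic difference is read from them. Few reads underlie both ratios, and the highest exonic level in any library was 0.204 CPM.

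Sla and Sla2 encode the Src-like adaptors SLAP and SLAP2, which lower antigen receptor levels and signalling in lymphocytes. Sla2 (ENSMUSG00000027636.11, chr2:156872457-156887192, minus strand) had 3.59, 4.26, 3.95 and 4.32 CPM with dTAG-13, against 0.484, 0.311, 0.887 and 0.622 CPM with DMSO. Its groups were far apart, with a log2 fold change of 2.76 ± 0.24 in exonic reads and 2.04 ± 0.39 in intronic reads. The 3′ end of Sla2 overlaps exons of Rab5if on the opposite strand, and the strand setting of the counting is not given in the sources used here. Rab5if averaged 68.1 ± 5.49 CPM with dTAG-13 and 67.1 ± 3.25 CPM with DMSO (SD, n = 4 each; adjusted p = 0.808 by edgeR's quasi-likelihood test).

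Sla (ENSMUSG00000022372.14, chr15:66780819-66831829, minus strand) was the more abundant of the pair in CPM. It had 28.1, 27.4, 27.7 and 28.6 CPM with dTAG-13, against 18.4, 18.0, 20.3 and 18.3 CPM with DMSO. The spread within groups was small beside the gap between them, and the log2 fold change was 0.57 ± 0.06 in exonic and 0.60 ± 0.10 in intronic reads. Sla lies within Tg, the thyroglobulin gene on the opposite strand, and their exons do not overlap. Tg rose to 1.05 ± 0.233 CPM with dTAG-13, against 0.290 ± 0.059 CPM with DMSO (SD, n = 4 each; log2 fold change 1.83 ± 0.35, adjusted p = 1.95e-04 by edgeR's quasi-likelihood test). Over all 8 libraries Tg had 196 exonic and 144 intronic reads, whereas Sla had 4175 exonic reads summed over the dTAG-13 and 2509 over the DMSO libraries.

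**Figure D2:**
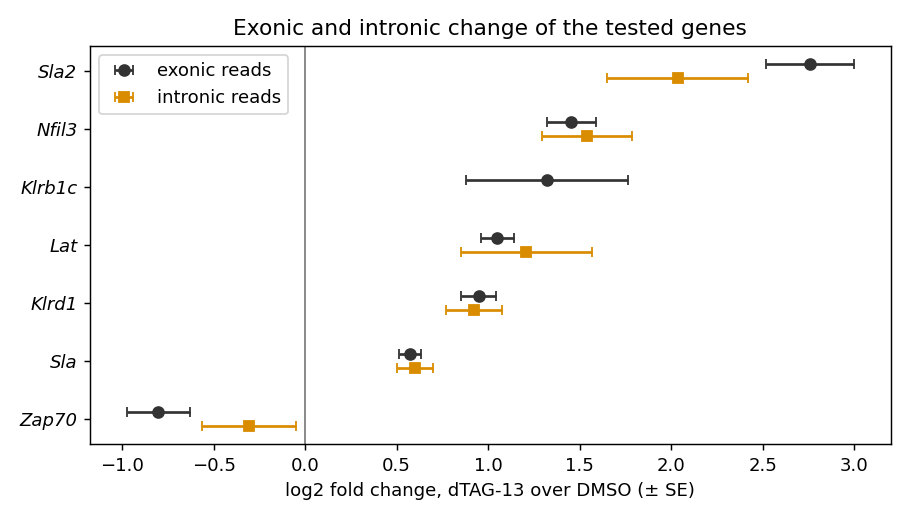
Log2 fold change of dTAG-13 over DMSO in exonic reads (circles) and intronic reads (squares) of the genes that passed the filter, with bars of 1 SE. Exonic and intronic values lie on the same side of 0 for the 6 genes with both, and the intronic value of Zap70, at -0.31, has the groups overlapping.

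Nfil3 encodes a basic leucine zipper factor that NK cell and innate lymphoid development needs in mice (ENSMUSG00000056749.7, chr13:52967209-52981073, minus strand). It averaged 7.38 ± 0.657 CPM with dTAG-13 and 2.69 ± 0.247 CPM with DMSO (SD, n = 4 each), with the lowest dTAG-13 library at 6.72 and the highest DMSO library at 2.94 CPM. The log2 fold change was 1.46 ± 0.13 in exonic reads and 1.54 ± 0.25 in intronic reads. Tox encodes an HMG-box factor of T cell and innate lymphoid development (ENSMUSG00000041272.11, chr4:6686353-6991557, minus strand). Its exonic count was 0 in all 8 libraries, which allows a level of up to 0.077 to 0.104 CPM depending on the library (3 counts). Its intronic count was 2 reads, both in dTAG-13 replicate 3, so no change of Tox was detectable at this depth.

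Klrd1 encodes CD94, which pairs with NKG2 proteins of the Klrc genes on NK cells (ENSMUSG00000030165.16, chr6:129591782-129598775, plus strand). It had 19.8, 21.3, 20.7 and 21.2 CPM with dTAG-13, against 7.74, 11.4, 11.6 and 12.1 CPM with DMSO. The groups did not overlap, DMSO replicate 1 was the lowest, and the log2 fold change was 0.95 ± 0.10 in exonic and 0.92 ± 0.15 in intronic reads. Klrc1, Klrc2 and Klrc3 had no exonic read in any library. Klrb1c encodes the NK1.1 antigen (ENSMUSG00000030325.16, chr6:128778485-128789215, minus strand). It had 14, 16, 28 and 18 exonic reads with dTAG-13, against 3, 6, 10 and 8 with DMSO, a log2 fold change of 1.32 ± 0.44, with 0.727 CPM in the highest library. Klrb1c shares exon sequence on the same strand with Gm44511, which had 0 exonic and 142 intronic reads over all libraries, so its values are uncertain.

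Per kb of exon, Klrd1 stood highest in both groups, with 16.2 ± 0.538 CPM per kb under dTAG-13 and 8.36 ± 1.57 under DMSO (SD, n = 4 each). With dTAG-13 it was followed by Lat, Nfil3, Sla, Sla2, Zap70, Klrb1c and Lcp2. Sla2 at 1.30 ± 0.108 and Zap70 at 1.16 ± 0.063 CPM per kb lay close together, and their order was not tested. With DMSO the order was Lat, Sla, Zap70, Nfil3, Sla2, Klrb1c and Lcp2, where Zap70 had an SD of 0.643 CPM per kb and Sla, at 2.04 ± 0.116 CPM per kb, did not differ from it beyond that spread. The authors' deposited table gives log2 fold changes on the same side of 0 for every one of the 8 genes with exonic reads, such as 2.72 for Sla2 and -0.71 for Zap70, and smaller ones for the low genes Klrb1c, 0.62, and Lcp2, 0.11. The direction and any shrinkage of that table are not stated.

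Other genes listed under T cell receptor proximal signalling, chosen with earlier results of these data known, were mostly higher. Of 38 listed, 31 were tested, 20 were higher and 3 lower in exonic reads (edgeR's quasi-likelihood test, adjusted p below 0.05), with a median log2 fold change of 0.18. Several of the higher ones were already abundant with DMSO, such as Csk at 308, Cbl at 229 and Fyn at 151 CPM, whereas Rasgrp1 averaged 0.133 CPM there. These were named after their values were seen, and the list is not one of genes silent in pro-B cells. Over all genes, 14.3% were called higher and 14.0% lower, the shares to set beside the exonic calls of every list below. Lck, the kinase that acts before ZAP70, rose to 55.5 ± 2.43 CPM with dTAG-13, against 29.6 ± 0.977 CPM with DMSO (log2 fold change 0.91 ± 0.05, adjusted p = 2.3e-14). Ptpn6, the phosphatase SHP-1 that dampens receptor signalling, rose by a log2 fold change of 0.70 (adjusted p = 6.6e-14). Sit1, a membrane adaptor that restrains T cell receptor signalling, fell to 10.3 ± 1.02 CPM with dTAG-13, against 31.4 ± 0.924 CPM with DMSO (adjusted p = 8.2e-16). Plcg1, the phospholipase recruited by LAT, fell to 69.1 ± 2.11 CPM, against 105 ± 0.619 CPM with DMSO (log2 fold change -0.61 ± 0.04, adjusted p = 7.5e-13). In intronic reads 11 of 30 tested genes were higher and 2 lower, against 8.26% and 8.5% of all genes.

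The paralogs and B cell counterparts of the 9 genes gave 0 higher and 3 lower calls among 8 tested of 18 listed, with a median log2 fold change of -0.08. Syk, the counterpart of Zap70, fell to 202 ± 8.02 CPM with dTAG-13, against 295 ± 3.32 CPM with DMSO (log2 fold change -0.54 ± 0.04, adjusted p = 3.0e-12 by edgeR's quasi-likelihood test). Blnk, the counterpart of Lcp2, averaged 167 ± 1.19 CPM with dTAG-13 and 181 ± 6.32 CPM with DMSO (adjusted p = 0.0133), a call that whole-gene counts did not make. Dbp, related to Nfil3, fell by 0.35 on the log2 scale (adjusted p = 0.00626). Tef, Tox4, Lat2, Klrb1 and Klrb1f did not pass the test, with adjusted p of 0.0797, 0.831, 0.964, 0.154 and 0.0852 by the same edgeR test. Their log2 fold changes were -0.18, -0.02, -0.04, 0.96 and 0.91, in that order. Those of Klrb1 and Klrb1f, with SE of 0.48 and 0.39, rest on few reads. Klrb1 had 66 exonic reads summed over the dTAG-13 and 31 over the DMSO libraries, and Klrb1f 131 and 62.

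Of 40 listed NK gene complex genes, 24 had no exonic read in any library, 6 were tested and 3 were higher, with a median log2 fold change of 0.49. Cd69, an early activation antigen, averaged 107 ± 6.95 CPM with dTAG-13 and 84.6 ± 1.35 CPM with DMSO (log2 fold change 0.34, adjusted p = 5.4e-07 by edgeR). Clec2d, a ligand of NKR-P1 receptors, rose by a log2 fold change of 0.30 and Gabarapl1, an autophagy gene of the interval, by 0.17. Within 1 Mb either side of Klrd1, a window chosen after values were seen, 13 genes other than Klrd1 and Klrb1c were tested, with 5 higher and 0 lower. Over all genes tested in exonic reads, 14.3% were called higher and 14.0% lower. All 13 lay at lower coordinates than Klrd1. The nearest tested gene at higher coordinates, Ybx3, lay 1766 kb away and was lower. Klrb1c starts 813 kb from Klrd1.

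**Figure D3:**
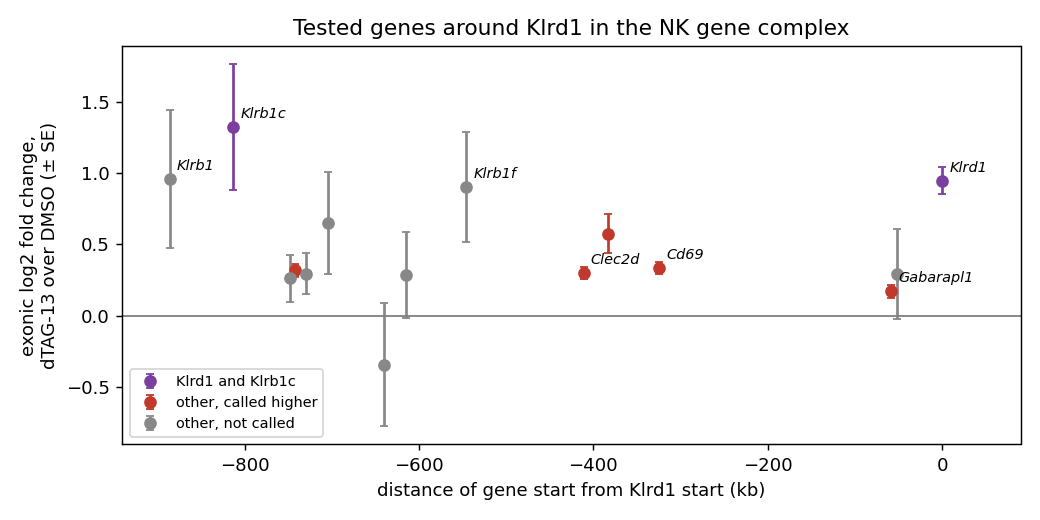
Exonic log2 fold change of dTAG-13 over DMSO for the tested genes around Klrd1, against distance from the start of Klrd1 in kb, with bars of 1 SE. Klrd1 and Klrb1c, 813 kb apart, are at 0.95 and 1.32, and 5 of the other 13 genes were called higher and 0 lower. Over all tested genes, 14.3% were called higher and 14.0% lower.

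Of 34 listed NK cell receptors and effectors, 17 had no exonic read, 9 were tested and 6 were higher, with a median log2 fold change of 1.27. Fcgr3, an Fc receptor also found on myeloid cells, rose to 28.8 to 31.4 CPM with dTAG-13, against 13.1 to 15.3 CPM with DMSO (adjusted p = 7.9e-13 by edgeR). Il12rb1, a subunit shared by cytokine receptors, rose to 5.30 ± 0.642 CPM, against 0.909 ± 0.217 CPM with DMSO (log2 fold change 2.53 ± 0.20, adjusted p = 7.1e-11). Cd244a and Sh2d1b1, a receptor and an adaptor of the SLAM pathway, rose by log2 fold changes of 1.27 and 1.31. Transcription factors of T, NK and innate lymphoid cells went both ways, with 2 higher and 4 lower among 13 tested of 26. Id2, an inhibitor of E proteins that innate lymphoid cells need, rose to 34.3 ± 0.650 CPM with dTAG-13, against 11.2 ± 0.379 CPM with DMSO (adjusted p = 2.8e-17 by edgeR), whereas Id3 fell by 0.90 and Hes1, a Notch target, by 2.27 on the log2 scale.

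**Figure D4:**
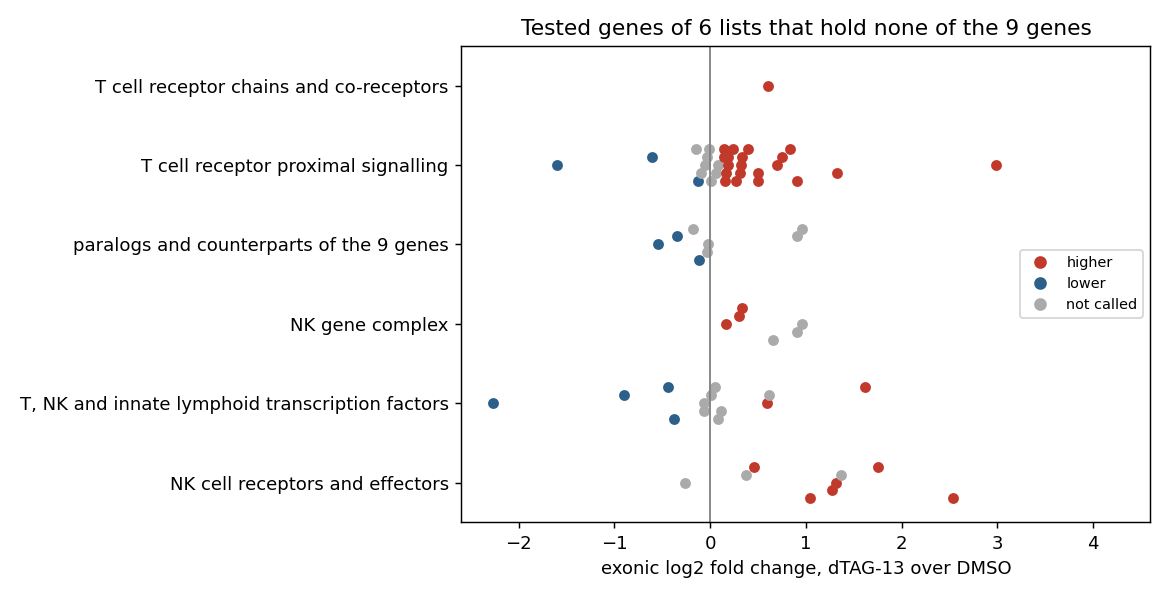
Exonic log2 fold change of dTAG-13 over DMSO for the tested genes of 6 lists that hold none of the 9 genes, 1 point a gene, coloured by call at adjusted p below 0.05. The signalling list has 20 higher and 3 lower genes of 31, and the paralog list 0 higher and 3 lower of 8. Over all tested genes, 14.3% were called higher and 14.0% lower.

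Defining T and NK cell markers were absent or near 0. Of 14 T cell markers, 10, among them Cd3d, Cd3e, Cd3g, Cd4 and Cd8a, had no exonic read in any library, and of 12 NK cell markers 8, among them Ncr1, Klrk1, Eomes and Tbx21, had none. The T cell markers summed to 0.699 ± 0.115 CPM with dTAG-13 and 0.341 ± 0.171 CPM with DMSO (SD, n = 4 each; two-sided exact permutation p = 0.0571, 0.0762 adjusted over 4 marker lists). The NK cell markers summed to 0.364 to 0.761 CPM with dTAG-13 and 0.0346 to 0.449 CPM with DMSO (exact p = 0.0571, adjusted 0.0762). Trac had 48 reads summed over the dTAG-13 and 14 over the DMSO libraries, Cd28 31 and 2, and Cd5 22 and 27, all named after their values were seen. Prf1, the only NK cell marker tested in exonic reads, had 71 and 24 reads. It did not pass the test (log2 fold change 1.37 ± 0.52, adjusted p = 0.0512 by edgeR). Of the antigen receptor chain and co-receptor list, 11 of 16 genes had no exonic read, and Trdc alone was tested (log2 fold change 0.61, adjusted p = 0.0324 by edgeR), with overlapping groups and a call lost in 5 of the fits that left out a library.

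The pro-B markers summed to 2717 ± 91.6 CPM with dTAG-13 and 3331 ± 39.3 CPM with DMSO (SD, n = 4 each; exact permutation p = 0.0286, the smallest that 4 against 4 allows, adjusted 0.0762), with 1 of 10 higher and 7 lower. The higher one was Ebf1, at 767 ± 38.5 CPM with dTAG-13 and 623 ± 13.9 CPM with DMSO. Its log2 fold change was 0.30 in exonic reads (adjusted p = 2.1e-07 by edgeR), a call that whole-gene counts did not make. In intronic reads it was 0.09 and not called. The cells carried an introduced EBF1 gene, and whether Ebf1 reads came from it was not tested. These reads are part of the pro-B sum. Cd24a and Dntt were not called in either kind of reads. Ebf1, Cd24a and Dntt were named after their values were seen. Igll1, a surrogate light chain gene, fell by 2.39 on the log2 scale. Myeloid markers summed to 3.98 ± 0.361 CPM with dTAG-13 and 4.37 ± 0.238 CPM with DMSO (exact permutation p = 0.143), and 4 of 11 had no exonic read. Of the 2 tested, Lyz2 was higher (log2 fold change 1.26 ± 0.43, adjusted p = 0.0305 by edgeR), a call lost under 7 alternatives, and Cd68 did not pass the test. The part of these marker levels in the values of the 9 genes was not tested.

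**Figure D5:**
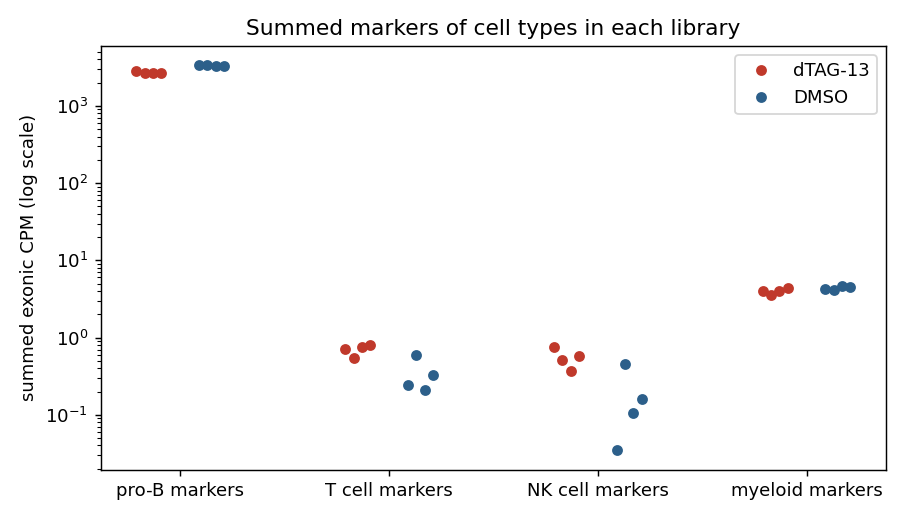
Summed exonic CPM of the 4 marker lists in each library on a log axis, dTAG-13 left of DMSO. T and NK cell markers average 0.699 and 0.552 CPM with dTAG-13 and 0.341 and 0.188 CPM with DMSO, and the pro-B markers lie at 2666 to 2854 CPM with dTAG-13 and 3285 to 3369 CPM with DMSO.

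Of 18 nearest tested neighbours of the 9 genes, 4 were higher, 5 lower and 9 did not pass the test. Over all genes tested in exonic reads, 14.3% were called higher and 14.0% lower. Some of these neighbours lay far off, such as Ybx3, 1766 kb from Klrd1, and Npm1, 884 kb from Lcp2, both lower. Sbk1, on the other side of Lat from Spns1 and 68.8 kb from Lat, rose by a log2 fold change of 0.18. Ndrg3, 40.2 kb from Sla2, rose by 0.19 and Nsmaf, 232 kb from Tox, by 0.20. The adjusted p of Sbk1, Ndrg3 and Nsmaf were 6.5e-04, 0.0010 and 1.7e-04 by edgeR. Spns1, next to Lat, and Auh and Sptlc1, 37.5 and 352 kb from Nfil3, did not pass the test (adjusted p = 0.331, 0.847 and 0.138 by edgeR). Tmem131, 9.37 kb from Zap70, fell by 0.46 on the log2 scale, and Ndrg1, 97.5 kb from Sla, fell by 1.45. By distance of centred log2 CPM over the 8 libraries, the gene most like Lat among 12888 others was Adcy7 at 0.17. Each such gene was picked as the one with the smallest distance, so nothing is read from how small it is. The gene most like Zap70 was Nat9 at 0.38, with 2.07, 1.71, 2.34 and 1.86 CPM in dTAG-13 libraries and 2.52, 2.52, 4.54 and 3.16 CPM in DMSO libraries. Nat9, picked for its likeness to Zap70 over these same libraries, was also highest in DMSO replicate 3. The genes most like Sla, Klrd1, Nfil3, Klrb1c and Sla2 were Rps6ka1, Cerkl, Def6, Agpat2 and March1, at 0.12, 0.19, 0.29, 0.60 and 0.86.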

How the data were processed

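Total RNA from 8 libraries, 4 with dTAG-13 and 4 with DMSO, was sequenced after ribosomal RNA depletion with a stranded kit, per the labels' protocols. The deposited tables hold unnormalised counts for each gene, over its exons and over its whole span. Tools named in the submitters' processing notes are STAR 2.7.4a, SAMtools 1.10, Subread 2.0.0 with featureCounts, and DESeq2, with builds mm10 and GRCm38.p4. The strand setting and annotation release are not given in the sources used here. The authors' deposited DESeq2 table holds log2 fold changes with standard errors (treated as a score) and p-values, per the file headers, and only its log2 values were used.

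Intronic counts were whole-gene minus exon counts. The test was that of edgeR 4.0.16 under R 4.3.3 (quasi-likelihood F test, TMM, filterByExpr with minimum count 10 and total 15, Benjamini-Hochberg, threshold 0.05), with treatment as the only term. A level is relative to the other RNA of its library. DESeq2 1.42.0, other scaling, no filter, whole-gene counts, a replicate block and leaving out libraries were alternatives. Scripts were tested on simulated data. The SE of a log2 fold change was derived as its size divided by the square root of its F statistic. Its median was 0.07 in exonic and 0.11 in intronic reads. Intervals and zero limits cover counting error only. The series' design text calls the libraries biological replicates without naming separate cultures, so p-values measure the spread between these samples.

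The 9 genes and all lists were chosen with earlier results of these data known. Named were the 9 genes, tested paralogs, up to 4 genes of each other list by smallest exonic p, nearest tested neighbours and the gene nearest in pattern. Gene positions are from GENCODE vM21 on GRCm38.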

Additional observations from a re-analysis of the deposited data

Results flagged for a closer look

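In 11 of 151 groups of 4 libraries, 1 library stood apart from the other 3 by Dixon's criterion, which chance meets in about 1 in 20 groups. Among the 9 genes, intronic Klrd1 was lowest in DMSO replicate 1, at 8.40 CPM, and intronic Nfil3 was lowest in DMSO replicate 4, at 2.17 CPM. Lcp2 was highest at 0.638 CPM in intronic reads of dTAG-13 replicate 4 and at 0.0522 CPM in exonic reads of DMSO replicate 3, where the other DMSO libraries had 0. Tox intronic reads were at 0.187 CPM in dTAG-13 replicate 3 and at 0 in the other dTAG-13 libraries.

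Among other named genes, Stat4 was highest in dTAG-13 replicate 1 at 37.8 CPM, and Gm44243 was lowest there at 0.707 CPM. Id3 was lowest in DMSO replicate 2 at 38.7 CPM, Gm44067 was lowest in the same library at 2.94 CPM, and Sit1 was highest in DMSO replicate 4 at 32.7 CPM. The summed pro-B markers were highest in dTAG-13 replicate 1, at 2854 CPM.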

How the results depend on the processing

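The 72 fold changes computed under alternatives that left out no library, for the 7 genes tested in exonic and the 6 in intronic reads, kept their direction, and none was computed for Lcp2 or Tox. Over all results, 310 of 318 values stayed the same, by a rule that depended on the kind of value. A fold change had to keep its sign and move by less than the SD within groups. A marker sum had to keep its sign and call, and a count had to be equal or within 1.5 times. Many of the counts were 0 in both fits, which the rule takes as the same. Without the filter on low counts, exonic higher calls were 2 for receptor chains, 1 for T cell markers and 0 for myeloid markers, and paralogs had 1 intronic higher call. Whole-gene counts gave 1 higher call for paralogs, 0 for pro-B markers and 0 for myeloid markers. The cause was not tested. Same-numbered libraries did not deviate together (correlations -0.02 to 0.05 in exonic reads, with 2 of 4 numbers best matched to themselves), and with the replicate block 1884 genes were higher and 1869 lower in exonic reads, against 1841 and 1808 without it, and 1 NK cell marker was called higher. Leaving out 1 library at a time gave exonic higher calls of 0 to 2 for receptor chains, 0 to 1 for T cell markers, NK cell markers, myeloid markers and paralogs, and 3 to 5 for the NK gene complex. In intronic reads the ranges were 0 to 1 higher for paralogs, 1 to 2 lower for receptor signalling, and 0 to 3 higher for the NK gene complex, with 0 without DMSO replicate 3. Of all called genes of the lists and neighbours, 49 of 60 exonic calls and 33 of 37 intronic calls held under every alternative run. Depth limits Lcp2, Tox and Klrb1c.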
